A study of Mus musculus with 36 samples.

Results

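The clustered protocadherins of the mouse are 57 protein-coding genes on chromosome 18, of 21887 protein-coding genes on chromosomes 1 to 19, X and Y in the reference table. They were taken by symbol: 14 begin with Pcdha (Pcdha1 to Pcdha12, Pcdhac1 and Pcdhac2), 22 with Pcdhb and 21 with Pcdhg (12 of type gamma A, 6 of type gamma B, and Pcdhgc3, Pcdhgc4 and Pcdhgc5). They span 911 kb, from 36930285 to 37841873 on the mm10 build. In chromatin immunoprecipitation followed by sequencing (ChIP-seq), mouse embryonic stem cells were profiled on days 0, 2, 4 and 6 with antibodies to CTCF and MBD3 and as input chromatin, in 12 groups of 3 samples. All groups carry the same label for the cells, which were kept with leukaemia inhibitory factor and serum replacement on irradiated mouse embryonic fibroblast feeders. The names of all 8 peak lists carry the mark WT. The sample labels name no strain and no agent, and how the cells were handled between the days is not given in the sources used here. The authors pooled the 3 replicates of an antibody and day before calling peaks, so 8 peak lists are described here, with no spread between replicates and no test of a day against another. No RNA was measured, so the cell type could not be checked against markers, and chromatin of the feeders cannot be told apart from that of the stem cells.

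Clustered protocadherins are cell surface adhesion proteins by which neurons tell their own branches from those of other neurons. A neuron uses a small choice of the alternate isoforms, each from a promoter of its own, while the C-type genes (Pcdhac1, Pcdhac2, Pcdhgc3, Pcdhgc4 and Pcdhgc5) are used more broadly. Each alpha and gamma promoter precedes a variable exon that is spliced to constant exons shared by its cluster, whereas the beta genes have no shared exons. CTCF is the zinc finger protein at the anchors of chromatin loops, and together with cohesin it brings protocadherin promoters to distal enhancers. Most of these promoters hold a conserved sequence element with a CTCF site, which Pcdhac2, Pcdhb1, Pcdhgc4 and Pcdhgc5 are known to lack, and alpha variable exons are known to carry a further CTCF site. MBD3 belongs to NuRD, a complex that remodels nucleosomes and removes acetyl groups from histones. The title of the series concerns NuRD at the sites that CTCF binds.

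The CTCF lists held 47414, 28137, 36787 and 38109 peaks on days 0, 2, 4 and 6, and the MBD3 lists held 10464, 1991, 9006 and 10875. The genome-wide background, in fragments expected over a summit, is the measure of depth used here, and it was 2.87, 2.67, 1.83 and 1.87 for CTCF and 1.51, 2.18, 1.93 and 1.41 for MBD3. Both antibodies had their shortest list on day 2, which bears on every absence on that day. A value called fold below is the authors' own fold enrichment at the summit. It is the fragments over the summit divided by the background expected there, after a small constant is added to both. Fold is therefore below the plain ratio, most of all where the background is low. Fold depends on the background of each list, so folds of different days stand side by side as values and were not tested as a change. Fragment numbers are given with exact 95% Poisson intervals, which cover counting error only, since amplified reads are not independent molecules. The members are similar copies of each other, and how reads that match several of them were treated is not given in the sources used here, so a gene without a peak is not shown to be unbound.

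CTCF lay at nearly all of these genes. A gene was counted when the summit of a peak lay between 1 kb before and 3 kb after its own start, so that no alpha or gamma gene was counted for a peak at the shared end of its cluster. On days 0, 2, 4 and 6, 53, 39, 47 and 48 of the 57 genes had CTCF. Of 17492 other protein-coding genes with a known strand outside chromosome 18, 32.5%, 13.5%, 17.9% and 18.4% had CTCF in the same window on these days. CTCF was present on all 4 days at 38 members, where 13.0% of the other genes had it on all 4 days, and on any day at 53 members, against 33.4%. By cluster, 14, 7, 10 and 10 of the 14 alpha genes had CTCF, with 20, 15, 18 and 19 of the 22 beta genes and 19, 17, 19 and 19 of the 21 gamma genes. When the same number of CTCF peaks was kept on each day, the alpha counts were 10, 7, 6 and 6, while 17, 15, 17 and 17 beta genes and 18, 17, 19 and 19 gamma genes had CTCF.

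**Figure D1:**
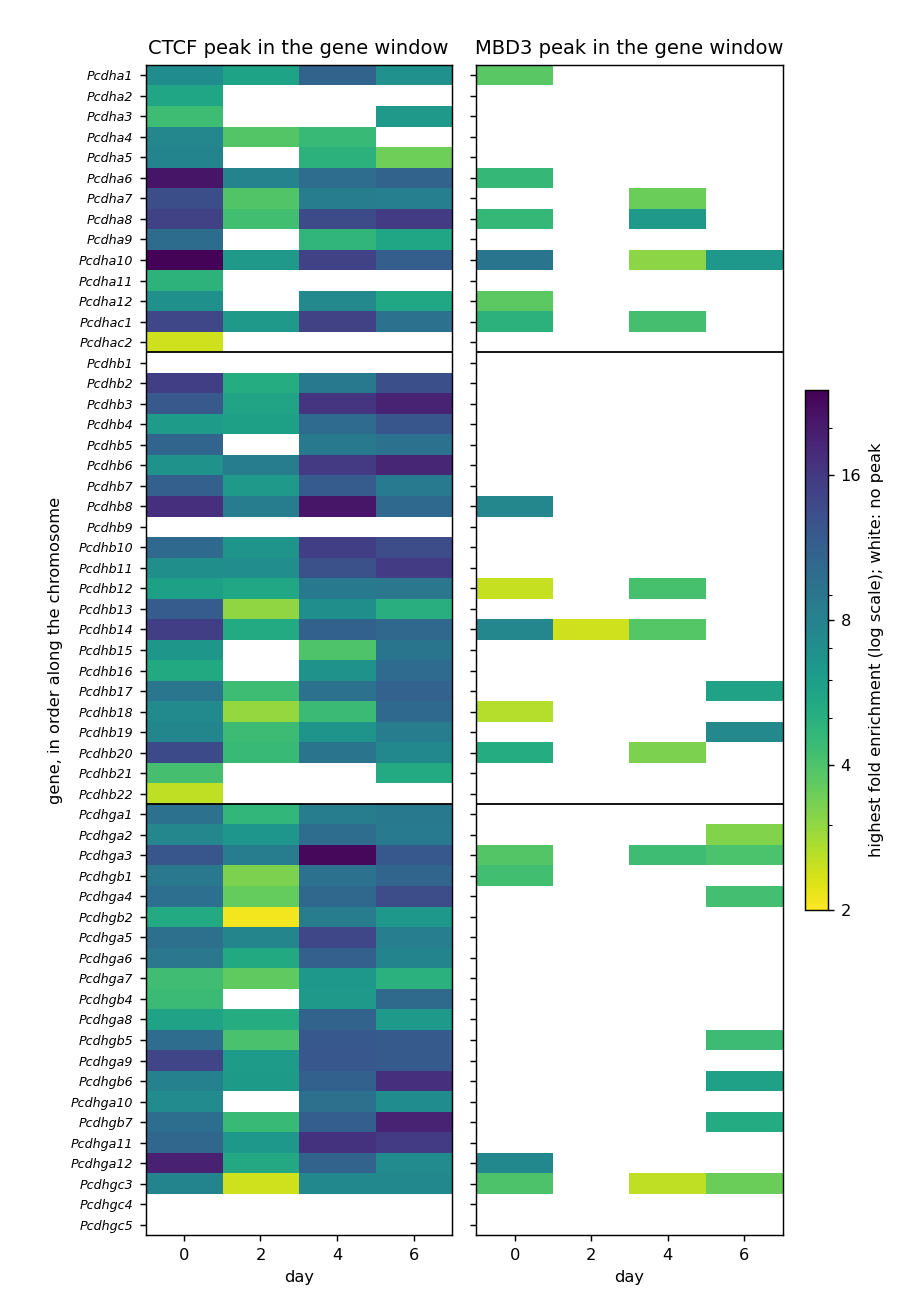
The authors' peaks at each of the 57 genes, in the order of the genes along the chromosome, for CTCF and MBD3 on days 0, 2, 4 and 6. The shading gives the highest fold enrichment in the gene's window and a blank cell has no peak. CTCF fills most cells except at Pcdhb1, Pcdhb9, Pcdhgc4 and Pcdhgc5, whereas MBD3 is present at 15, 1, 9 and 10 genes on the 4 days.

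Pcdhb1, Pcdhb9, Pcdhgc4 and Pcdhgc5 had no CTCF peak on any day. Of these 4, Pcdhb1, Pcdhgc4 and Pcdhgc5 belong to the genes known to lack the conserved element, and Pcdhb9 does not. Pcdhac2, the other gene known to lack it, had a CTCF peak on day 0 alone, 126 bp after its start, with 30 fragments (20.2 to 42.8) and a fold of 2.40, the lowest fold among the alpha, beta and gamma peaks at a start on that day. The other C-type genes had CTCF on all 4 days. At Pcdhac1 the fold was 14.1, 6.25, 14.7 and 9.53 on days 0, 2, 4 and 6. At Pcdhgc3 it was 7.82, 2.40, 7.54 and 7.51. Thus the C-type genes fell into 2 with CTCF on every day, 1 with a weak peak on a single day and 2 with none.

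At 5 members CTCF was called on day 0 but no longer on day 6, namely at Pcdha2, Pcdha4, Pcdha11, Pcdhac2 and Pcdhb22. They were 5 of the 53 members with CTCF on day 0. Of all the other genes 14.7% did so, which was 2569 of the 5688 with CTCF on day 0. The reverse was found at no member and at 0.537% of the other genes. It could occur only at the members without CTCF on day 0, namely Pcdhb1, Pcdhb9, Pcdhgc4 and Pcdhgc5. The day 0 folds of the 5 members were low to moderate. Pcdha2 had a fold of 5.51 on day 0 and no peak later. The stronger of the 2 summits of Pcdha11 had a fold of 4.81. Pcdha4 had a start site with a fold of 5.21 on day 0. It also had a site at a median of 502 bp after its start, with folds of 7.60, 3.87 and 4.51 on days 0, 2 and 4. Pcdhb22, the last beta gene, had a single summit 2258 bp after its start on day 0, with a fold of 2.54. The median CTCF fold of all alpha start sites on day 0 was 5.54, and the 4 alpha genes among these members lay below it at their start sites.

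The CTCF summits lay in a few ranges of distance from the starts, which differed by cluster. All 3 clusters had a group near the start. Its median position was 131 bp before the start at 14 alpha genes (36 summits over the 4 days), 54 bp before it at 19 beta genes (65 summits) and 50 bp before it at 19 gamma genes (77 summits). It ranged from -233 to 314 bp in alpha, from -202 to 143 bp in beta and from -106 to 321 bp in gamma genes. The farthest alpha start summits thus came near the next group. Alpha genes had a second group farther in, at a median of 499 bp after the start and between 346 and 602 bp (26 summits at 9 genes). Beta genes had their second group much farther in, at a median of 2211 bp after the start and between 1640 and 2393 bp (51 summits at 17 genes). Only 8 gamma summits, at 5 genes, lay at such a late position. No summit in a member's window fell outside these start, early and late positions, whose limits were drawn after the summits were seen.

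**Figure D2:**
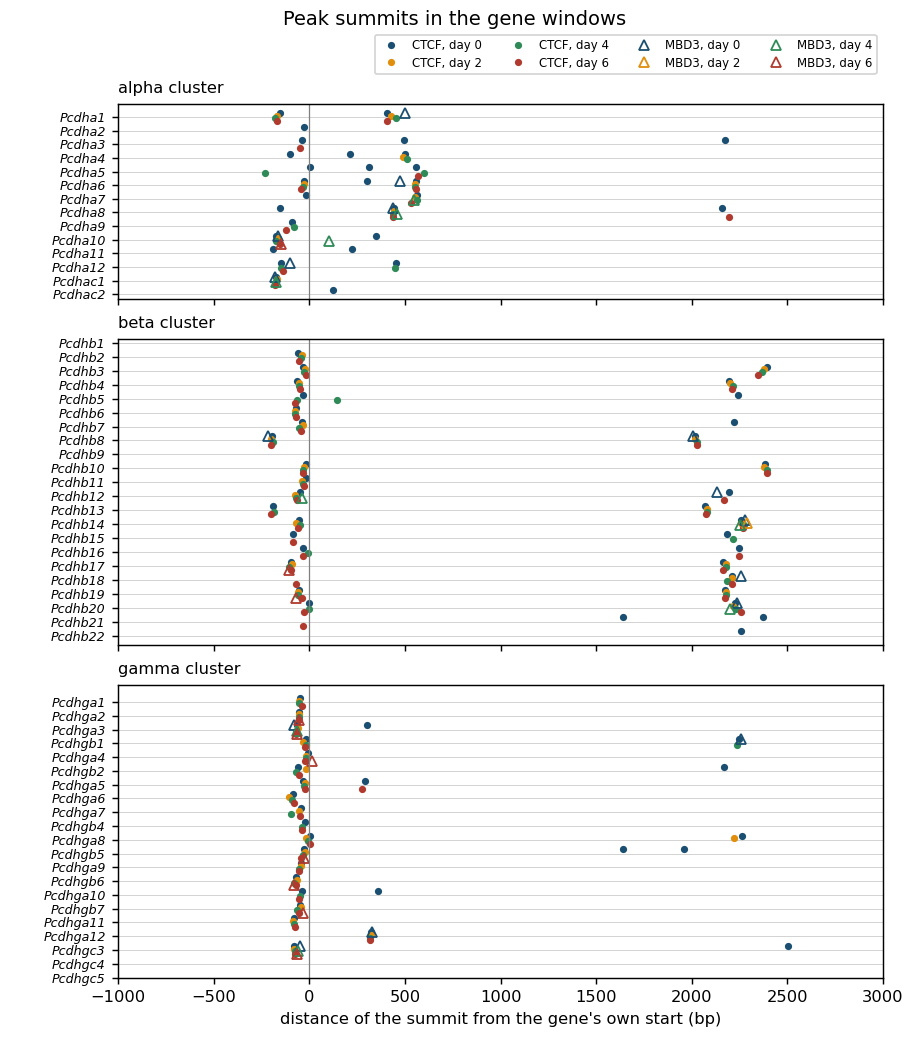
Distance of each CTCF and MBD3 summit from the start of its own gene, in bp, for the alpha, beta and gamma clusters over all 4 days. Summits gather at the start in all 3 clusters, near 499 bp in alpha genes and near 2211 bp in beta genes.

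A CTCF summit at the start was found at 50, 33, 42 and 45 of the 57 members on days 0, 2, 4 and 6, and at 18.7%, 6.25%, 8.12% and 8.40% of the other genes. The late position held CTCF in 17, 10, 11 and 12 of the 22 beta genes, and in 4.62%, 2.09%, 2.85% and 2.88% of the other genes. The early position held it in 9, 5, 7 and 5 of the 14 alpha genes, against 5.44%, 1.29%, 1.83% and 1.88%. A start summit together with an early or late one on the same day was found at 29, 10, 14 and 14 members, and at 2.73%, 0.314%, 0.515% and 0.543% of the other genes. Both positions therefore occurred in the same genes, 14 of the 22 beta genes on day 0 and 9 of the 14 alpha genes, while 13 of the 21 gamma genes had the start position alone on that day.

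In the alpha cluster the site of highest fold differed from gene to gene. Pcdha10 had its stronger CTCF site at the start, beside an early site with a fold of 3.61 on day 0 alone. At the start it had folds of 23.5, 6.32, 14.9 and 11.3 on days 0, 2, 4 and 6, from 90 (72.4 to 111), 40 (28.6 to 54.5), 51 (38.0 to 67.1) and 38 (26.9 to 52.2) fragments. The day 0 fold of 23.5 was the highest of any member on any day. Pcdha6 also had its stronger site at the start, with 20.9, 7.88, 9.92 and 10.9, beside an early site with 11.7, 3.58, 8.71 and 6.29. Pcdha8 was the reverse, with an early site of 14.9, 4.24, 13.6 and 15.5 on the 4 days and a start site of 6.24 on day 0 alone. Pcdha7 resembled Pcdha8, with an early site of 13.2, 3.93, 8.47 and 8.19 and a start site of 2.77 on day 0 alone. Pcdha1, the first gene of the cluster, held both, at 7.15, 5.67, 10.9 and 6.83 at the start and 6.31, 3.44, 8.16 and 6.19 at the early site. On day 0 the early site had the higher fold in 5 of the 9 alternate alpha genes with both a start and an early site. The remaining alternate alpha genes had CTCF on 3 or fewer days. Pcdha5, Pcdha9 and Pcdha12 lacked it on day 2, and Pcdha3 lacked it on days 2 and 4.

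In the beta cluster the start and late sites also differed in strength within a gene. Pcdhb14 had its stronger site late on day 0, with folds of 15.2, 5.25, 7.80 and 8.28 on days 0, 2, 4 and 6, from 181 (156 to 209), 90 (72.4 to 111), 60 (45.8 to 77.2) and 46 (33.7 to 61.4) fragments. At its start the folds were 7.41, 4.01, 11.1 and 10.5. The late site was thus the higher one on days 0 and 2 and the start site on days 4 and 6. Pcdhb20 had a late site of 13.7, 4.51, 9.23 and 7.55, with 5.43, 4.96 and 5.57 at the start on days 0, 4 and 6. Pcdhb8 had 17.0, 8.41, 20.6 and 10.3 at the start and 14.4, 4.12, 12.2 and 7.28 late. Pcdhb10 had 10.3, 6.63, 15.2 and 13.3 at the start and 9.51, 5.70, 6.08 and 6.59 late. In Pcdhb3 the start was the stronger site on each day, at 12.0, 5.61, 16.5 and 18.8 beside 7.0, 3.17, 4.06 and 2.82 late. Pcdhb6 and Pcdhb2 had the start site alone, at 6.78, 8.49, 15.7 and 18.3 in Pcdhb6 and at 15.2, 5.15, 8.78 and 13.1 in Pcdhb2. Pcdhb18 had no start summit on days 0, 2 and 4 and one on day 6, with a fold of 10.3 from 34 fragments (23.5 to 47.5), while its late site was called on each day at 7.39, 2.95, 4.43 and 3.62. Pcdhb21 likewise had its start site on day 6 alone, at 5.26, and its late site on day 0 alone, at 4.17 for the stronger of 2 summits. Pcdhb4, Pcdhb7, Pcdhb11, Pcdhb12, Pcdhb13, Pcdhb17 and Pcdhb19 had CTCF on each day, and Pcdhb5, Pcdhb15 and Pcdhb16 lacked it on day 2.

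In the gamma cluster CTCF lay mostly at the start alone, and it was called on every day at 17 of the 21 genes. Pcdhga12 had folds of 19.1, 5.38, 10.9 and 7.21 on days 0, 2, 4 and 6, at a median of 320 bp after its start, whereas the main site of the other gamma genes lay near or before the start. Pcdhgb7 had 9.82, 4.46, 11.4 and 19, from 188 (162 to 217), 80 (63.4 to 99.6), 88 (70.6 to 108) and 152 (129 to 178) fragments. Day 0 thus had the highest fold in Pcdhga12 and day 6 in Pcdhgb7. Pcdhga3 had its highest fold on day 4, with 12.3, 8.41, 22.8 and 12.1. Pcdhga11 had 10.6, 6.40, 16.6 and 15.6, Pcdhgb6 had 8.08, 6.17, 11.1 and 17.2, and Pcdhga4 had 9.68, 3.60, 10.4 and 13.3. Pcdhga2 had 7.59, 6.49, 9.89 and 8.54. Pcdhga10 and Pcdhgb4 lacked CTCF on day 2, and the other gamma A and gamma B genes (Pcdhga1, Pcdhga5 to Pcdhga9, Pcdhgb1, Pcdhgb2 and Pcdhgb5) had it on each day.

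Median folds of member summits were near those of their lists, except for MBD3 on day 2. The member medians count every summit, also weaker ones of the same peak. Those of the lists count only the summit of highest −log10 q in each peak, so the 2 are not the same measure. The median fold of the member summits was 6.71, 5.14, 8.81 and 8.27 for CTCF on days 0, 2, 4 and 6, beside 6.67, 5.46, 8.56 and 8.91 over all CTCF peaks. For MBD3 it was 4.42, 2.40, 3.85 and 4.79, beside 4.07, 4.29, 3.85 and 4.58. The day 2 MBD3 value is that of a single peak.

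From day 0 to day 6, CTCF folds at the late beta sites were lower while those at the beta starts were mostly higher. Of the 12 late beta sites called on both days, 1 had a higher fold on day 6, and the median ratio of day 6 to day 0 was 0.548. Of the 17 beta start sites called on both days, 12 had a higher fold on day 6, with a median ratio of 1.29. Over all 33933 CTCF peaks shared by these days, 59.3% had a higher fold on day 6 and the median ratio was 1.10. The gamma start sites were near this background, with 11 of 19 higher and a median of 1.13. The alpha sites were lower at both positions, with 1 of 7 start sites and 1 of 5 early sites higher and medians of 0.676 and 0.620. Within the 11 beta genes that had both sites on both days, the ratio of late to start fold was lower on day 6 than on day 0 in 11, and its median was 0.923 on day 0 and 0.518 on day 6.

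**Figure D3:**
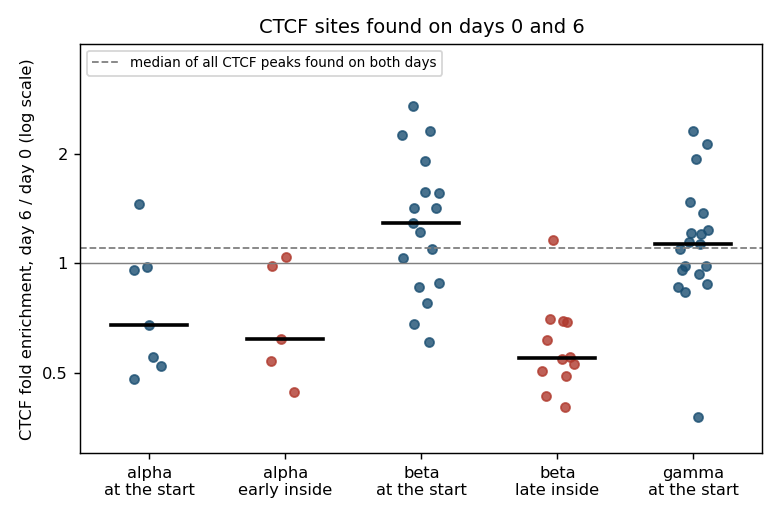
Ratio of the day 6 to the day 0 CTCF fold enrichment (log axis) at each site called on both days, for alpha start, alpha early, beta start, beta late and gamma start sites, with the median of all shared CTCF peaks for comparison. The beta late sites have a median of 0.548 and the beta start sites one of 1.29.

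The separation of late and start sites was also seen in fragments divided by the genome-wide level of each list, a scale added after the data were seen. On it 0 of the 12 late beta sites were higher on day 6, with a median ratio of 0.389. Of the 17 start sites 14 were higher, with a median of 1.16. Over all shared CTCF peaks the values were 75.0% and 1.28. On this scale the median of the beta starts was thus below that of all shared peaks. The background expected at the late beta sites, divided by the same level, had a median ratio of 0.552. At the beta starts this ratio was 0.872. The local background at the late sites was thus lower on day 6 together with the fragments, and at the starts its median was lower too. Its part in the differences was not tested. On day 2, when 10.5% of the shared CTCF peaks had a higher fold than on day 0, 3 of 12 beta start sites, 0 of 10 beta late sites and 0 of 17 gamma start sites were higher. On day 4, when 53.7% were higher, 12 of 16, 1 of 11 and 15 of 19 of these sites were.

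MBD3 was found at fewer members than CTCF, and only where CTCF had a peak on the same day. It was called at 15, 1, 9 and 10 of the 57 genes on days 0, 2, 4 and 6, and at 9.35%, 2.00%, 9.39% and 6.95% of the other genes. Both antibodies were present on the same day at these same numbers of members, and at 8.55%, 1.02%, 7.51% and 6.44% of the other genes. Of the other genes with MBD3, 1495 of 1635, 179 of 350, 1313 of 1643 and 1126 of 1215 also had CTCF in the window. MBD3 together with CTCF was thus usual outside the members too on days 0, 4 and 6. On any day 23 members had MBD3, against 14.0% of the other genes, and 0 had it on all 4 days, against 1.08%. All 36 MBD3 peaks with a summit in the windows overlapped a CTCF peak of the same day by 1 bp or more, and 35 of the summits lay inside it. The share of all MBD3 peaks of the genome that overlap a CTCF peak was not computed. The MBD3 summits were at a median of 17 bp and at most 275 bp from a CTCF summit, with folds from 2.40 to 9.18. The MBD3 calls are weak, and when only peaks with a −log10 q of 10 or more were kept, 6, 0, 2 and 5 genes had MBD3. Carry-over of CTCF fragments and binding of both proteins cannot be told apart from these lists.

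**Figure D4:**
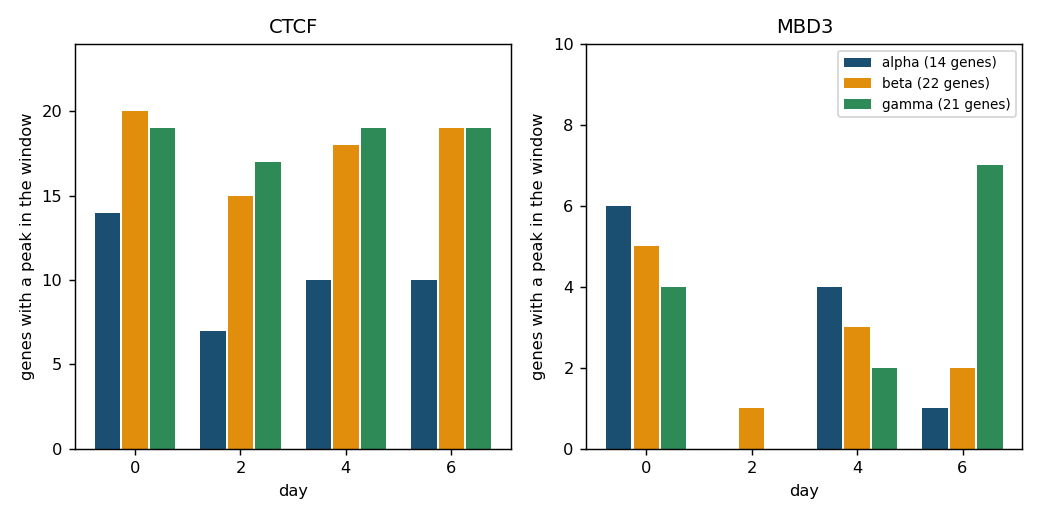
Number of alpha, beta and gamma genes with a CTCF or MBD3 summit in the window on days 0, 2, 4 and 6. The MBD3 counts on day 0 and day 6 are 6 and 1 for alpha, 5 and 2 for beta, and 4 and 7 for gamma.

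As called, most members with MBD3 on day 0 or day 6 had it on only 1 of these days. On day 0 and not day 6 there were 12 members with MBD3, against 4.29% of the other genes, on day 6 and not day 0 there were 7, against 1.89%, and on both days 3, namely Pcdha10, Pcdhga3 and Pcdhgc3. Of the other genes, 750 of the 1635 with MBD3 on day 0 lacked it on day 6. On day 6, 330 of their 1215 with MBD3 had lacked it on day 0. By cluster, MBD3 was at 6, 0, 4 and 1 alpha genes, at 5, 1, 3 and 2 beta genes and at 4, 0, 2 and 7 gamma genes. With a −log10 q of 10 or more, the day 0 and day 6 counts were 2 and 0 for alpha, 2 and 2 for beta and 2 and 3 for gamma. With equal numbers of peaks per day, 2 genes were left on day 0 and 0 on day 6.

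The alpha genes with MBD3 had it largely on days 0 and 4. At the start of Pcdha10 the MBD3 fold was 9.18 on day 0 and 6.35 on day 6, with summits at -162 and -150 bp. They rested on 22 (13.8 to 33.3) and 17 (9.9 to 27.2) fragments, and the intervals overlap. On day 4 its summit lay elsewhere, at 101 bp after the start, and was not joined with the site of days 0 and 6. The day 4 fold was 3.07, from 12 (6.2 to 21) fragments. Pcdha8 had MBD3 at its early site with 4.60 on day 0 and 6.23 on day 4, and Pcdhac1 had it at its start with 4.85 and 4.16 on these days. Pcdha1, Pcdha6 and Pcdha12 had MBD3 on day 0 alone, at 3.76, 4.59 and 3.73, and Pcdha7 had it on day 4 alone, at 3.49. The day 4 MBD3 summit of Pcdha10 lay 275 bp from the CTCF summit, the largest such distance among the 36, and outside the CTCF peak.

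As called, MBD3 in the beta genes lay mostly at late sites on day 0, and at 2 start sites on day 6. On day 0 a −log10 q of 10 was reached only by the late peak of Pcdhb14 (23.7) and the start peak of Pcdhb8 (10.6). The late peaks of Pcdhb20, Pcdhb8, Pcdhb18 and Pcdhb12 had 8.87, 5.17, 3.32 and 1.81. With that limit day 0 thus shows no majority of late sites. Pcdhb14 had it late at 7.58, 2.40 and 3.85 on days 0, 2 and 4, and was the only member with MBD3 on day 2. Pcdhb20 had it late at 5.15 and 3.28 on days 0 and 4. Pcdhb8 had both sites on day 0, with 7.58 at the start and 3.77 late, and Pcdhb12 and Pcdhb18 had the late site on that day at 2.48 and 2.65. The 2 beta genes with MBD3 on day 6 were Pcdhb19 at 7.48 and Pcdhb17 at 5.73, both at the start, and Pcdhb12 had it at the start on day 4 at 4.11. Over the cluster, late sites with MBD3 numbered 5, 1, 2 and 0 on days 0, 2, 4 and 6, and start sites 1, 0, 1 and 2. Among the other genes, 1.10%, 0.206%, 0.898% and 0.938% had MBD3 at the late position and 5.06%, 1.13%, 5.17% and 3.35% at the start.

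In the gamma genes MBD3 was mostly at starts and was called more often on day 6. Pcdhga3 had it at 3.87, 4.32 and 4.05 on days 0, 4 and 6, and Pcdhgc3 had it at 4.01, 2.53 and 3.49 on these days. On day 0 alone it was at Pcdhga12 with 7.49 and at the late site of Pcdhgb1 with 4.24. On day 6 alone it was at Pcdhgb6 with 5.79, Pcdhgb7 with 5.19, Pcdhgb5 with 4.38, Pcdhga4 with 4.21 and Pcdhga2 with 3.21.

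The stretches known to hold distal enhancers of the clusters were read separately from the genes. An enhancer of the alpha cluster lies beyond its constant exons, and a set of enhancers lies beyond the gamma cluster. The shared alpha end is taken here as the last one, 37188897, which is that of Pcdha6. The most frequent end of the alpha genes is 37187657. No peak of either antibody lay in the 42219 bp from the end of the Pcdhac2 window to the shared alpha end on any day. Between the shared alpha end and Pcdhb1 there were 2 CTCF peaks on each day, with summits 28577 and 29511 bp beyond that end (at 37217474 and 37218408). Their CTCF folds were 8.57, 6.29, 8.39 and 9.26 for the first and 8.94, 5.49, 11 and 9.31 for the second. MBD3 was at the second alone, at 3.21 on day 0 and 2.87 on day 6. This pair of sites was called on all 4 days, which was so for 6 of the 14 alpha genes.

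Within 50 kb beyond the shared gamma end there were 5, 4, 4 and 5 CTCF peaks and 2, 2, 3 and 2 MBD3 peaks on days 0, 2, 4 and 6, all inside Diaph1, a neighbouring gene that encodes an actin-nucleating formin. The site 41805 bp beyond the end (at 37883678) had CTCF folds of 26.6, 9.52, 22.3 and 24.5, from 486, 196, 367 and 591 fragments, and MBD3 folds of 11.4, 2.64, 7.07 and 10.2. The site 10439 bp beyond it (at 37852312) had CTCF folds of 20.2, 12.8, 27.7 and 26.1 and MBD3 folds of 10.2, 3.76, 9.87 and 9.40. These 2 sites had MBD3 on all 4 days as called, which no member had. Their day 2 MBD3 peaks had a −log10 q of 5.08 and 7.60, so with a −log10 q of 10 or more neither had MBD3 on that day. On each day their CTCF folds were above the member median. The sites 35637 and 38516 bp beyond the end had CTCF on each day, at 9.87, 7.84, 14.1 and 8.32 and at 12.2, 6.05, 10.7 and 11.9, and the latter had MBD3 on day 4 at 4.66. A weaker site at 45308 bp had CTCF at 3.77 on day 0 and 4.42 on day 6.

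**Figure D5:**
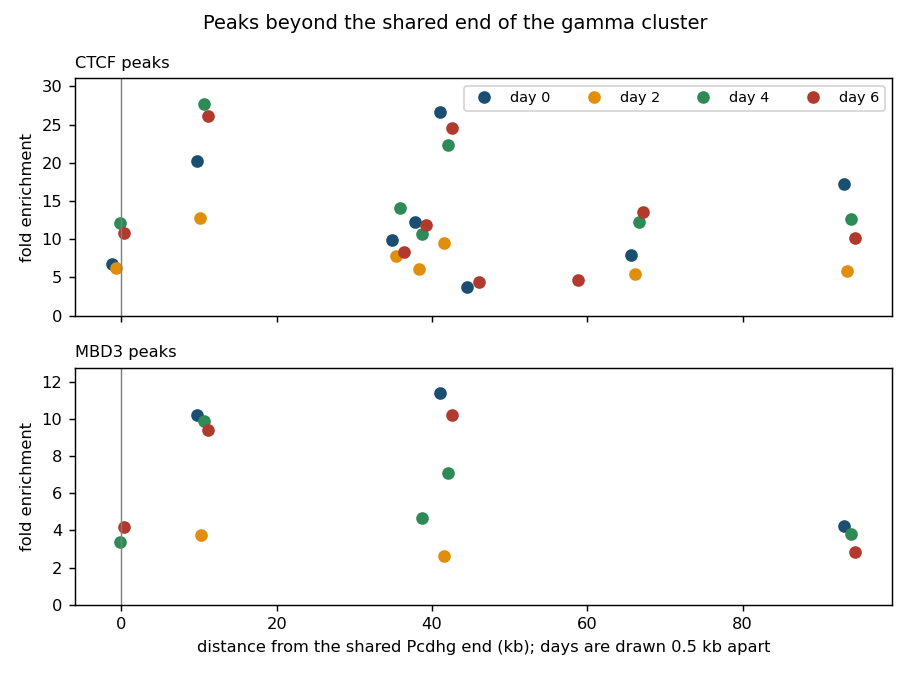
Fold enrichment of CTCF and MBD3 peaks on days 0, 2, 4 and 6 against distance from the shared gamma end, in kb. The 2 sites 10439 and 41805 bp beyond the gamma end carry both antibodies on all 4 days as called, and lose MBD3 on day 2 with a −log10 q of 10 or more.

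The non-clustered protocadherins, 12 genes outside the clusters that encode related adhesion proteins, had CTCF at a smaller share of their number than the members. Pcdh1 and Pcdh12 among them also lie on chromosome 18. The 9 with a known strand were read in the same window and the rest of the 12 within 1 kb of either end. On days 0, 2, 4 and 6, 5, 3, 3 and 3 of these genes had CTCF, and 1, 0, 2 and 1 had MBD3. Of the 17492 background genes, 32.5%, 13.5%, 17.9% and 18.4% had CTCF and 9.35%, 2.00%, 9.39% and 6.95% had MBD3, all in the window of the members. Those with both antibodies on a day were Pcdh1, with CTCF at 10.4, 7.66, 11.4 and 11.6 and MBD3 at 2.90, 3.17 and 3.83 on days 0, 4 and 6, and Pcdh8, with CTCF at 14.0, 8.22, 11.2 and 10.0 and MBD3 at 4.10 on day 4. Of 12 genes that flank or lie between the clusters, 3, 1, 1 and 1 had CTCF and 1, 0, 1 and 1 had MBD3 within 1 kb of either end.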

How the data were processed

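Samples were grouped by the labels into 12 groups of 3. The submitters' processing notes list the mm10 build, MACS2 2.1.2 and Bowtie2 2.3.4, and also bedtools 2.25.0, SAMtools 1.9 and FastQC 0.11.7. The authors deposited 8 peak lists with the fold enrichment at each summit, a ratio of fragments to expected background with a small constant added to both. A −log10 p and a −log10 q per peak are deposited too, and no peak has a −log10 q under 1.30. Per the file headers and row names, replicates 1 to 3 were pooled against a control. Values per replicate were not analysed here, so no test was made.

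A gene's own start is its table start in RefSeq GRCm38.p6, the assembly of mm10. The alpha members other than Pcdha6, and the gamma members, end almost at the same coordinate within their cluster. The beta genes were taken to run in the same direction. The table does not give exons, so whether a summit is exonic or intronic was not read. The window ran from 1 kb before to 3 kb after the start. Rows with one interval and several summits count as 1 peak, and each of their summits was placed. Start sites lay from -300 to 340 bp, early sites from 341 to 700 bp and late sites from 1500 to 2600 bp. Summits within 150 bp were joined into a site. The number of fragments over each summit and its expected background were recovered from the fold and −log10 p, within 0.01% of the −log10 p, for all 303 member and 75 other summits. On data simulated with the same formula 400 of 400 summits were recovered. Of 3000 random positions 3000 were placed in a window that bedtools also gave, or in none where it gave none. Both checks cover the arithmetic only, not how reads were assigned to similar genes. Other genes with a known strand, outside chromosome 18, gave the background shares.

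The members, lists and alternatives were chosen with earlier results of these data known, and the position limits after the summits were seen. Named with folds were up to 8 genes per cluster and antibody in order of −log10 q, among those with CTCF on all 4 days, with MBD3 on any day or with a peak on only one of day 0 and day 6, and always the C-type genes and Pcdhb1. Pcdha3, Pcdha5, Pcdha9, Pcdha12, Pcdhb15, Pcdhb16 and Pcdhb21 are placed by their days, and the values of Pcdhb21 were chosen after they were seen. Alternatives were equal list lengths over the days, a minimum −log10 q of 10, other windows, every summit, interval overlap, summits within 100 bp and, added after seeing the data, fragments over the genome-wide level and both peak filters for the day 6 to day 0 comparison. Motifs in member promoters were not analysed here. Tools were scipy 1.17.1, pandas 2.3.3, numpy 2.4.6, bedtools 2.31.1 and matplotlib 3.10.9 under Python 3.11.15.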

Additional observations from a re-analysis of the deposited data

How the results depend on the processing

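No paired analysis was possible because the authors called peaks on pooled replicates, and leaving out a replicate could not be run for the same reason. Of 163 values under the alternatives, 134 stayed within 1.5 times the value as reported and 29 did not, namely counts of MBD3 or of both antibodies and the CTCF site comparisons given last. With a −log10 q of 10 or more, the genes with MBD3 and the genes with both antibodies numbered 6, 0, 2 and 5 on days 0, 2, 4 and 6 in place of 15, 1, 9 and 10, and MBD3 peaks in the cluster 6, 0, 2 and 7 in place of 18, 1, 11 and 14. MBD3 peaks in the enhancer stretches on day 2 were 0 in place of 2. With lists of equal length, the genes with MBD3 and those with both numbered 2, 0 and 0 on days 0, 4 and 6, as did the MBD3 peaks in the cluster. With a window of 500 bp on either side of the start, the genes with MBD3 and with both on day 2 were 0 in place of 1. Among sites with a lower CTCF fold on day 6 than on day 0, late beta sites were 11 of 12 as reported, 5 of 6 with a −log10 q of 10 or more and 4 of 5 with equal list lengths. The early alpha sites were 4 of 5 as reported and 1 of 2 with equal numbers. In fragments over the genome-wide level, lower sites were 3 of 17 beta starts in place of 5 and 3 of 19 gamma starts in place of 8. Where sites or genes were fewer because fewer peaks were kept, the alternative itself sets the count, and for the others the cause was not tested. Without replicate values, no difference between days has an error beyond counting. An absence on day 2 is read from the shortest list of its antibody, although the genome-wide level of that day (2.67 for CTCF and 2.18 for MBD3) was not the lowest. Member MBD3 peaks rest on as few as 10 fragments on day 0.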

Other observations

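Several peaks of the locus lay outside the members' windows. The transcribed pseudogene Pcdhgb8, which lies among the gamma genes, had CTCF near its start (summit 37761667) with folds of 10.7, 9.54 and 11.5 on days 0, 4 and 6 and MBD3 at 6.06 on day 6. A further CTCF site within the span of Pcdhgb8 (37772133) was called on each day at 11, 6.81, 8.83 and 8.20, and another (37784404) on day 0 at 4.27. Both also lie within the spans of all gamma A and gamma B genes, which run to the shared gamma end. They are therefore not tied to Pcdhgb8. Between Taf7, which encodes a subunit of the general transcription factor TFIID, and Pcdhga1 lay a site (37655615) with CTCF at 12.6, 5.48, 8.03 and 6.07 and MBD3 at 4.92 on day 0 and 3.19 on day 4. A site just before the shared gamma end (37841460) had CTCF at 6.73, 6.23, 12.1 and 10.8 on days 0, 2, 4 and 6, with MBD3 at 3.36 on day 4 and 4.16 on day 6. MBD3 had a peak of 3.38 in Taf7 on day 6, 12409 bp from the nearest CTCF summit, and this was an MBD3 summit of the locus without a CTCF peak.

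More than 50 kb beyond the shared gamma end, CTCF was called on each day 66396 bp beyond it at 7.91, 5.45, 12.2 and 13.6, and 93761 bp beyond it at 17.2, 5.88, 12.6 and 10.2. At the latter, near the far end of Diaph1, MBD3 had folds of 4.22, 3.81 and 2.83 on days 0, 4 and 6. A site 58009 bp beyond the end was called on day 6 alone, at 4.72.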
